A study of Mus musculus with 24 samples.

Results

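The 76 histone genes of a mouse RNA-seq count table, out of 25229 gene symbols in it, are described here across 4 treatments of ID8 P53 KO cells. They were chosen by name alone, as every symbol that starts with the old cluster names of histone genes (Hist1h to Hist4h) or with H1f, H2ac, H2af, H2az, H2bc, H3c, H3f or H4c. Of the 76, 62 are replication-dependent histone genes, 7 are replacement histone genes, 3 are testis genes that lie in the histone clusters (H1f6, H2ac1, H2bc1), 3 are germline genes (H1f7, H1f8, H3f3c) and 1, H3f4, was left unclassified. The histone genes H2ax, H2aj, Macroh2a1, Macroh2a2 and Cenpa carry other names and were not among the members.

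ID8 P53 KO is a mouse ovarian cancer line, labelled as a P53 knockout in every sample, so all 4 groups lack p53. Cells received DMSO, the solvent control, AU15330 at 2.5 uM, cisplatin at 750 nM, or both agents together, for 6 days before RNA was taken. AU15330 (AU-15330 below) is a PROTAC, a molecule that directs SMARCA4 and its paralogue SMARCA2 to degradation. It acts on the proteins, so the mRNA of these genes is no check of the labels. Cisplatin crosslinks DNA. Each group held 6 libraries, all enriched for polyadenylated RNA and sequenced as single reads of 70 bases, and the 2 sequencing lanes of a library were summed.

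Histone mRNAs come in 2 kinds. Replication-dependent genes encode the H1, H2A, H2B, H3 and H4 proteins that package newly made DNA, and their transcripts are made in S phase. These mRNAs normally lack a poly(A) tail and end in a conserved stem-loop that the protein SLBP binds, so an oligo(dT) selection keeps only those copies that carry a tail. Replacement genes, such as H3f3b, H1f0 and H2az1, are expressed outside S phase too and their mRNAs are polyadenylated like most others. In these libraries the level of a replication-dependent mRNA and the share of it that carries a tail cannot be told apart.

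The stem-loop is shown because it is the element that separates the 2 classes. Of 47 replication-dependent genes with an annotated stretch of at least 16 bases after the stop codon (GENCODE transcripts, GRCm38), 39 held it there, against 0 of the 6 replacement genes with such a stretch. Searched over whole transcripts instead, 68 of all 21901 protein-coding genes, histone genes included, held it. The search asked for a 6-base stem that starts with GG and ends with CC and a 4-base loop that starts with TTT. The 16 bases of 4 forms follow with the loop in capitals. The first form was found in 23 genes, among them H1f2, H2bc6, H2bc8 and H3c4, the second in 6 genes, among them H4c8, and the last 2 forms in 2 genes each.
H1f2: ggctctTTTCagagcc
H4c8: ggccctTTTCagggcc
H4c9: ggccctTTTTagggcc
H4c11: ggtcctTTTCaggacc
In 13 replication-dependent genes an annotated transcript ends with a poly(A) signal within its last 40 bases, and 9 of them hold the stem-loop as well. H1f2 is one of these, with 840 annotated bases after its stem-loop. H2bc4 and H2bc21 had no match in 742 and 2192 annotated bases after the stop codon. The 13 genes supplied 45.9% of all replication-dependent counts in the 24 libraries, and the 39 with the stem-loop supplied 50.5%.

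Promoters were read for 61 of the 76 members from RefSeq (GRCm38.p6), as 250 bases before to 50 after the start. Of 49 promoters of replication-dependent genes, 43 (87.8%) held CCAAT on either strand, against 37.4% of 32851 mouse promoters. The TATAAA box was present in 28 of 49 (57.1%), against 13.6%, and the octamer ATTTGCAT in 11 of 49 (22.4%), against 1.74%. These 11 belonged to 5 H2A and 6 H2B promoters. The promoters of H1f2, which fell under every treatment, of H4c8, which rose from near 0 with AU-15330, and of H2bc8, which holds all 3 motifs, follow on the plus strand with the motifs in capitals (ATTGG is CCAAT on the other strand).
H1f2, chr13:23738557-23738856: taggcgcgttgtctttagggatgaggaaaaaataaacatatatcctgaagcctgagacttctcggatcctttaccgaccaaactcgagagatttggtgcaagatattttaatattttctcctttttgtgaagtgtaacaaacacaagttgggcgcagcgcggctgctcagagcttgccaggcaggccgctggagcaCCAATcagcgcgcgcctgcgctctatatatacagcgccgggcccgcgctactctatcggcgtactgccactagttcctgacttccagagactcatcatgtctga
H4c8, chr13:23530794-23531093: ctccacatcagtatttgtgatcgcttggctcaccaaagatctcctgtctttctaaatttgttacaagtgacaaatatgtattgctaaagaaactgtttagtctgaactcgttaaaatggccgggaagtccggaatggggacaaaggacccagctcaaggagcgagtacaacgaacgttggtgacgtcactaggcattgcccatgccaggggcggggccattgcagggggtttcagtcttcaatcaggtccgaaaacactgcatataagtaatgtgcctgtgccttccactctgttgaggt
H2bc8, chr13:23571150-23571449: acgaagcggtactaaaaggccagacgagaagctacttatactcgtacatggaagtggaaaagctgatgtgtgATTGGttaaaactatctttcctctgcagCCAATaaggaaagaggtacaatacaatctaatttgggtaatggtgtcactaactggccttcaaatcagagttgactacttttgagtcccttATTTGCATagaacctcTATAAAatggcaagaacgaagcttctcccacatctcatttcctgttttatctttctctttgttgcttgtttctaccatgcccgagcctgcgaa
None of the 3 motifs was in the H4c8 window. The table held no promoter for H2bc4 or H2bc21.

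Library totals ran from 17592588 to 25260009 counts, so 3 counts stood for 0.119 to 0.171 counts-per-million (CPM). Sums below are in CPM of the library total, and levels of single genes in CPM of the total scaled by TMM, the trimmed mean normalization of edgeR. An edgeR fit of 12941 genes that passed a filter on low counts gave the tests. Among the members 35 passed it, 30 replication-dependent and 5 replacement, 32 were detected but too low, and 9 had no count in any library. Of these 9, 8 were replication-dependent, and most of them share their sequence with other genes, as given below. None of the 32 exceeded 17 counts in a library, and H1f10 and H2afy3 were the 2 replacement genes among them. The 8 markers of epithelial or mesothelial cells (4 keratins, Wt1, Msln, Upk3b and Epcam) summed to 3191 to 4878 CPM with DMSO and 1066 to 1186 with AU-15330, and Epcam never exceeded 2 counts. Of the 4 leukocyte markers, Cd68 carried the sum, which was 6.17 to 17.7 CPM with DMSO and 17.2 to 54.1 with AU-15330, and Ptprc, Adgre1 and Cd3e never exceeded 5, 2 and 2 counts. Of the 3 endothelial markers Cdh5 and Kdr never exceeded 3 counts and Pecam1 carried the sum. It was 2.61 to 4.09 CPM with DMSO, 0.267 to 0.730 with AU-15330 and 8.39 to 12.2 with cisplatin. The 3 fibroblast markers (Dcn, Lum, Pdgfra) summed to 17.8 to 40.4 CPM with DMSO, 46.4 to 71.9 with AU-15330 and 144 to 228 with cisplatin. The part of any of these in the histone results was not tested.

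Summed over the 62 genes, replication-dependent transcripts took 144 to 166 CPM of the library total with DMSO, with a median of 159. They took 342 to 379 (median 368) with AU-15330, 159 to 214 (median 172) with cisplatin and 222 to 287 (median 256) with both agents. The AU-15330 and combination libraries overlapped neither each other nor the remaining groups, whereas cisplatin overlapped DMSO. The mean with AU-15330 was 2.31 times that with DMSO (365 ± 13.4 against 158 ± 8.23, SD, n = 6). H2bc4 and H1f2 alone supplied 42.0% and 32.1% of the replication-dependent counts, and without them the sums were 9.47 to 22.9 CPM with DMSO, 82.2 to 123 with AU-15330, 40.1 to 52.1 with cisplatin and 60.6 to 94.2 with both. The mean with AU-15330 was then 6.95 times that with DMSO. In bulk RNA of this kind, fewer cells that express a gene and less RNA per cell cannot be told apart.

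**Figure D1:**
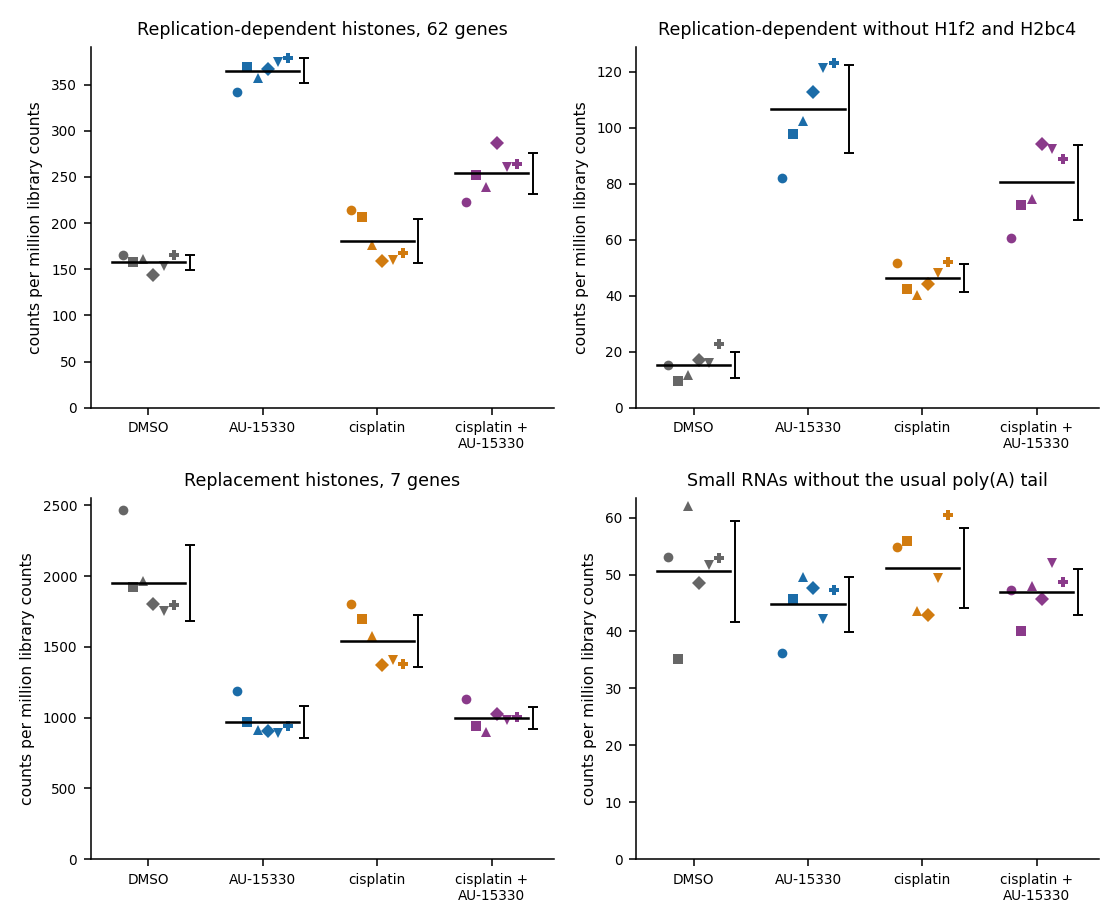
Summed histone transcripts CPM in each of the 24 libraries (dots, shape by replicate number), by treatment, with the group mean as a line and its SD as a bar. Replication-dependent sums are highest with AU-15330 (342 to 379), replacement sums are highest with DMSO (1751 to 2471), and the sums of other RNAs without the usual poly(A) tail overlap in all 4 groups.

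The sum of replacement transcripts went the other way. Their 7 genes summed to 1751 to 2471 CPM (median 1863) with DMSO and 890 to 1190 (median 926) with AU-15330. With cisplatin the range was 1371 to 1804 and with both agents 902 to 1129. H3f3b and H1f0 held 347943 and 183993 of the 710845 counts of the class, so these sums rest mostly on them. The same holds for the share of both classes below. H3f3a, H2az1 and H2az2 did not pass the test with AU-15330. Replication-dependent genes thus held 6.28 to 8.42% of the counts of both classes with DMSO, 10.03 to 10.8% with cisplatin, 16.5 to 21.9% with both and 22.3 to 29.6% with AU-15330, and the 4 ranges did not overlap. Within histone H3, the share of counts from replication-dependent genes was 0.0489 to 0.167% with DMSO, 0.318 to 0.566% with cisplatin, 1.25 to 2.62% with both and 1.44 to 2.93% with AU-15330. Small structural RNAs that normally have no poly(A) tail summed to 35.1 to 62.1 CPM with DMSO and to 36.3 to 49.6 with AU-15330, and these ranges overlapped. The part of untailed RNA in the histone results was not tested.

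AU-15330 alone moved most tested replication-dependent genes. Of 30, 28 rose, 1 fell (H1f2) and 1 did not pass the test (H2bc21), with a median log2 fold change of 2.77 against -0.00 over all genes tested. Over all tested genes, 36.2% rose and 37.2% fell in this comparison. A gene that is low with DMSO passes the count filter only where a treatment raises it, so such genes had to differ and this count is a description. Among the 7 genes with at least 10 counts in every DMSO library (H2bc4, H1f2, H2bc21, H4c9, H1f5, H1f4, H1f3), 5 rose and 1 fell. All 7 tested H3 genes, all 6 H4 genes and all 4 H2A genes rose, as did 7 of 8 H2B and 4 of 5 linker H1 genes. Summed over all replication-dependent genes of a family, the mean with AU-15330 was 13.5 times that with DMSO for H3, 10.7 times for H4, 7.34 times for H2A, 5.30 times for H2B and 0.901 times for H1.

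H2bc4, an H2B gene at chr13:23684199-23692908 on the plus strand (GENCODE, GRCm38), was the most abundant member of the class with AU-15330. Its level was 21.1, 32.2 and 50.1 CPM (lowest, median and highest library) with DMSO, 153, 161 and 183 with AU-15330, 51.3, 61.1 and 92.5 with cisplatin and 115, 125 and 143 with both. No 2 of the 4 groups overlapped. It rose by 2.25 ± 0.18 (log2 fold change ± SE) with AU-15330 (edgeR quasi-likelihood test, adjusted p = 1.96e-11). Within DMSO, replicates 1 to 3 (39.6 to 50.1 CPM) lay above replicates 4 to 6 (21.1 to 24.9), and the same change was 1.90 in the first set and 2.74 in the second. The labels name no such sets.

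H4c8, an H4 gene at chr13:23531050-23531519, had the largest fitted increase over all libraries. H3c8 and H4c1, both near 0 with DMSO, had larger ones in some sets of replicates. H3c8 did so without replicate 1 (6.62 against 6.18) and in replicates 4 to 6 (6.40 against 5.86), and H4c1 in replicates 1 to 3 (7.65 against 6.39). The level of H4c8 was 0.0483, 0.32 and 0.485 CPM with DMSO, 14.9, 20.1 and 22.8 with AU-15330, 1.20, 1.63 and 2.64 with cisplatin and 9.65, 14.5 and 17.1 with both. Every AU-15330 library was above every cisplatin library, and every cisplatin library above every DMSO library. The change with AU-15330 was 6.07 ± 0.247 on the log2 scale (adjusted p = 1.71e-17). H4c1, another H4 gene, had 0 to 4 counts in a DMSO library and 4.14 to 6.70 CPM with AU-15330, a fitted change of 5.77 (adjusted p = 1.09e-13) that depends on the prior count at such low values. H2bc6, an H2B gene, went from 0.341, 1.13 and 1.79 CPM with DMSO to 15.8, 19.2 and 23.95 with AU-15330, a change of 4.23 ± 0.232 (adjusted p = 7.62e-15). Its annotated span runs into the GENCODE end of H1f4 on the same strand, so some of their counts may be shared.

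Other members rose as well. H3c4, an H3 gene, rose by 4.01 (adjusted p = 8.52e-12), H2bc8 by 2.58 (adjusted p = 5.83e-08) and the linker histone gene H1f5 by 2.16 (adjusted p = 3.48e-06). H4c9 rose from 1.05 to 2.08 CPM with DMSO to 4.49 to 6.26 with AU-15330, a change of 1.71 (adjusted p = 2.43e-08), and the groups did not overlap. H4c4 rose by 1.96 (adjusted p = 2.84e-05), and by 2.54 when replicate 1 was left out. In replicates 1 to 3 it differed by 1.47 and did not pass the test (adjusted p = 0.0556).

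H1f2 was the exception that fell. This linker histone gene, at chr13:23738808-23740367, stood at 106, 118 and 124 CPM with DMSO, 69.0, 87.4 and 96.8 with AU-15330, 59.9, 66.6 and 78.8 with cisplatin and 32.4, 38.1 and 44.8 with both. Only AU-15330 and cisplatin overlapped. It fell by 0.44 on the log2 scale with AU-15330 (adjusted p = 8.7e-05). H2bc21, on chromosome 3 and outside the large cluster on chromosome 13, was at 2.87, 4.31 and 5.39 CPM with DMSO and 3.71, 4.46 and 5.51 with AU-15330, a difference of 0.10 ± 0.147 that did not pass the test (adjusted p = 0.554). In replicates 1 to 3 the difference was 0.50 and passed (adjusted p = 0.034), and in replicates 4 to 6 it was -0.30 and did not (adjusted p = 0.141). The 2 sets of replicates did not overlap with DMSO (2.87 to 4.21 and 4.42 to 5.39 CPM) or with AU-15330 (4.68 to 5.51 and 3.71 to 4.24).

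**Figure D2:**
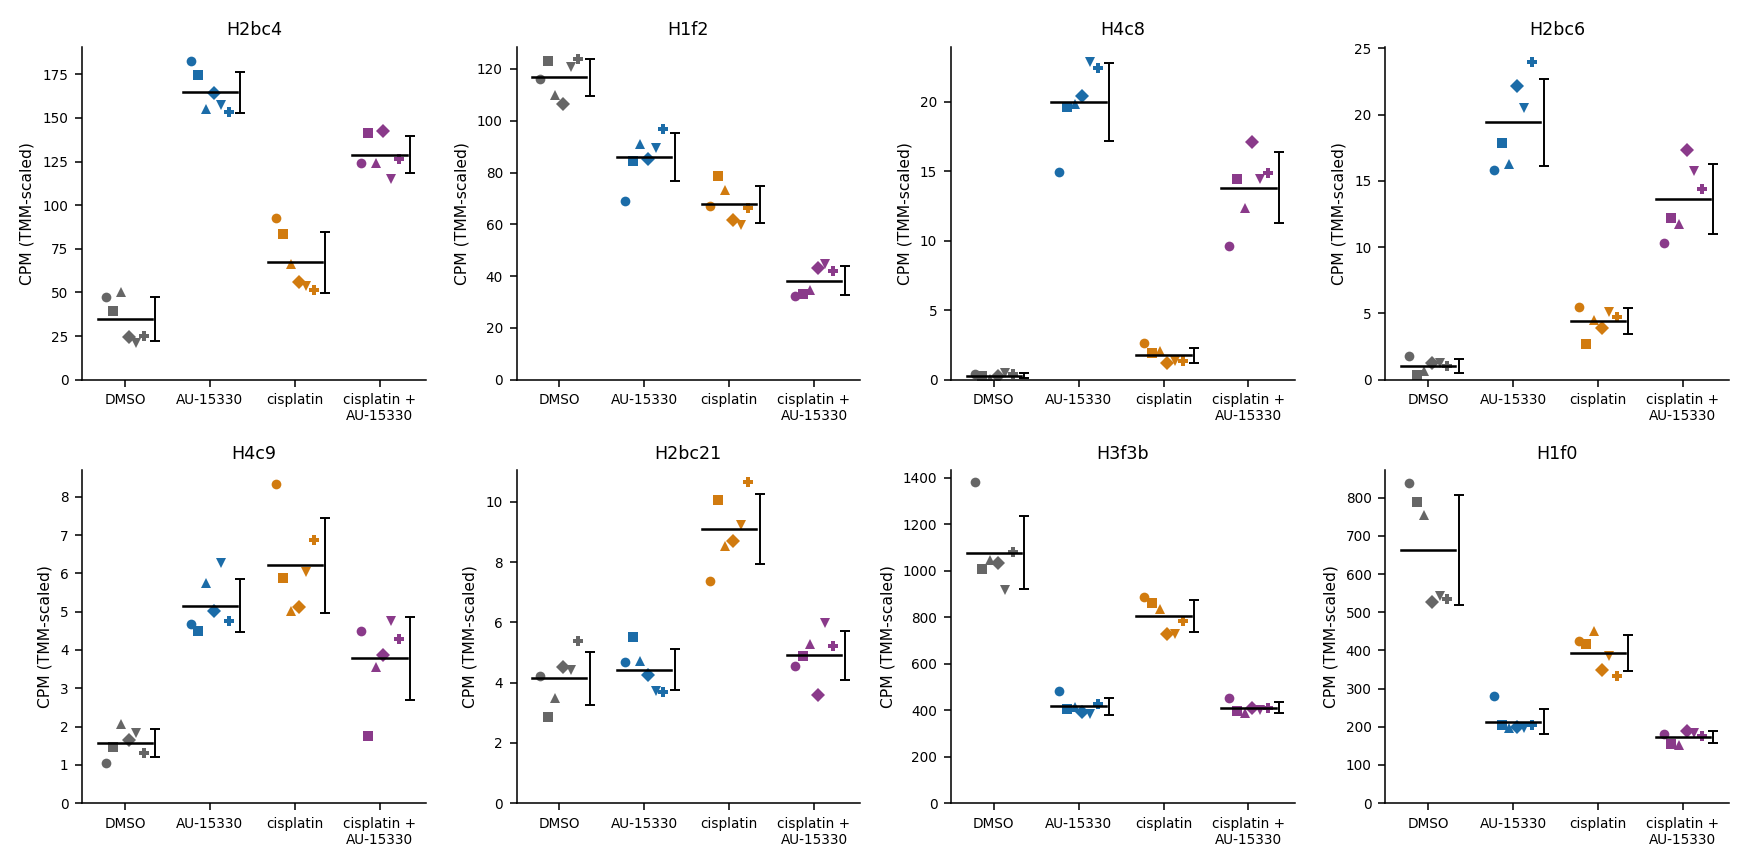
Level of 6 replication-dependent genes (H2bc4, H1f2, H4c8, H2bc6, H4c9, H2bc21) and 2 replacement genes (H3f3b, H1f0) in every library, in CPM, by treatment. H2bc4, H4c8 and H2bc6 are highest with AU-15330, H2bc21 is highest with cisplatin, and H1f2, H3f3b and H1f0 are highest with DMSO.

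Of the 5 tested replacement genes 2, both abundant, fell with AU-15330 and 0 rose, where 37.2% of all tested genes fell, so the count alone does not set the class apart. H3f3b, which encodes the variant H3.3, stood at 918, 1039 and 1382 CPM with DMSO, 382, 409 and 482 with AU-15330, 726, 809 and 888 with cisplatin and 386, 405 and 454 with both. DMSO was above every other group, and the 2 groups with AU-15330 overlapped. H3f3b fell by 1.37 (adjusted p = 8.23e-14). H1f0, the linker histone known from differentiated and resting cells, stood at 527, 648 and 838 CPM with DMSO, 197, 202 and 280 with AU-15330, 332, 402 and 450 with cisplatin and 154, 179 and 190 with both. It fell by 1.64 with AU-15330 (adjusted p = 3.69e-12), by 1.81 in replicates 1 to 3 and by 1.43 in replicates 4 to 6.

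H2az1, a gene for the variant H2A.Z, was at 69.3, 98.4 and 119 CPM with DMSO and 85.0, 91.6 and 127 with AU-15330, a difference of 0.04 that did not pass the test (adjusted p = 0.777). H3f3a, the second H3.3 gene, ran from 138 to 254 CPM with DMSO and from 118 to 179 with AU-15330 (-0.23, adjusted p = 0.105), and H2az2, the second H2A.Z gene, from 52.8 to 114 and from 59.3 to 86.2 (-0.08, adjusted p = 0.667). All groups overlapped for H3f3a. Neither H3f3a nor H2az2 passed the test in any of the 4 pairwise comparisons in the fit of all 24 libraries without a block. Fitted on the groups compared alone, H2az2 and H3f3a passed with both agents against cisplatin (adjusted p = 0.0359 and 0.0356). Without replicate 1, H2az2 passed with cisplatin (0.36, adjusted p = 0.0149), and with both agents against cisplatin H2az2 (-0.32, adjusted p = 0.0222) and H3f3a (-0.26, adjusted p = 0.0285) did.

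Divided by annotated exon length, H3f3b stood highest with DMSO at 362 CPM per kilobase, followed by H1f0 at 323, with H1f2 at 74.8, H2bc4 at 29.98 and H4c8 at 0.634. With AU-15330 H2bc4 reached 142 CPM per kilobase and H3f3b 140, and H4c8 reached 42.6, close to the 55.1 of H1f2. The annotation behind the deposited counts is not given in the sources used here, so the lengths are those of GENCODE.

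Replication-dependent genes were also set apart by a poly(A) signal at an annotated end, with no test of the difference. The search found such an end in 5 of 7 replacement genes and not in H3f3b, so its absence does not show that a gene lacks a poly(A) site. The 8 tested genes with such an end had a median log2 fold change of 1.74 with AU-15330 and the 22 without it 2.86, while with cisplatin the medians stood the other way, at 2.04 and 1.72. H4c8, H4c1 and H2bc6, with rises of 6.07, 5.77 and 4.23 with AU-15330, are among the 8, and so are H1f2 and H2bc21. Summed, the genes with it took 108 to 127 CPM with DMSO and 119 to 164 with AU-15330, and over all libraries most of their counts came from H1f2. The genes without it took 28.1 to 52.4 and 208 to 225, most of them over all libraries from H2bc4. The 32 replication-dependent genes that were not tested had a joint sum that moved from 0.523 to 1.26 CPM with DMSO to 2.97 to 4.52 with AU-15330, and the number of the 62 genes detected in a library from 29 to 36 to 48 to 51.

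Cisplatin alone also raised most of the tested genes of the class. Of the 30 tested genes 25 rose, 1 fell (H1f2) and 4 did not pass the test, with a median of 1.81 against -0.00 over all genes. Of all tested genes 26% rose and 25.7% fell. Among the 7 genes with at least 10 counts in every DMSO library, 4 rose and 1 fell. The 4 that did not pass were H1f5, H4c4, H1f3 and H3c6, and H4c4 passed without replicate 1 (1.25, adjusted p = 0.00361). Fitted on the cisplatin and DMSO libraries alone, 19 of the class passed the filter, of which 14 rose and 1 fell.

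H2bc4 rose by 0.96 ± 0.176 with cisplatin (adjusted p = 6.07e-05), by 0.82 in replicates 1 to 3 and 1.17 in replicates 4 to 6. H4c8 rose by 2.54 (adjusted p = 6.65e-08), H2bc6 by 2.09 (adjusted p = 6.55e-08), H4c11 by 2.28 (adjusted p = 9.27e-06) and H3c4 by 1.77 (adjusted p = 0.000129). The rise of H4c8 was 3.35 in replicates 1 to 3 and 1.78 in replicates 4 to 6. H4c9 rose by 1.98 ± 0.199 (adjusted p = 6.59e-09), its cisplatin libraries being at 5.02, 5.95 and 8.33 CPM against at most 2.08 with DMSO. H2bc21 was at 7.39, 8.97 and 10.7 CPM with cisplatin, above every library of the other 3 groups, a rise of 1.13 ± 0.143 (adjusted p = 3.05e-07). H2bc8 rose by 1.26 (adjusted p = 0.00227). H4c1 rose by 2.42 (adjusted p = 0.000105), but by 4.97 in replicates 1 to 3 and by 0.99 in replicates 4 to 6, where it did not pass the test (adjusted p = 0.112).

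The 2 largest fitted rises with cisplatin were those of H3c8 and H2bc11, both close to 0 with DMSO. H3c8, an H3 gene, had 2 counts in all DMSO libraries together, both in replicate 1, and 108 counts with cisplatin. The ratio of CPM was 48.6 (95% counting interval 13.1 to 407). Its fitted change of 5.11 became 6.98 without replicate 1. H2bc11, an H2B gene, had 3 DMSO counts and 63 with cisplatin, a ratio of 18.9 (6.18 to 94.2), and its fitted change of 3.89 became 4.97 without replicate 6. With AU-15330 the ratios were 40.9 (10.95 to 343) for H3c8 and 8.41 (2.56 to 43.5) for H2bc11, and the fitted changes of 4.79 and 2.68 became 6.62 without replicate 1 and 3.80 without replicate 6. In replicates 4 to 6 H2bc11 differed by 1.46 with AU-15330 and did not pass the test (adjusted p = 0.264). Counting intervals cover counting error only.

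H1f2 fell by 0.78 ± 0.0895 with cisplatin (adjusted p = 5.78e-08). Both abundant replacement genes fell as well, H3f3b by 0.42 (adjusted p = 0.000125) and H1f0 by 0.76 (adjusted p = 7.56e-06), and 0 of the 5 tested rose, where 25.7% of all genes fell and 26% rose. H2az1 was at 91.7, 107 and 169 CPM with cisplatin (0.31, adjusted p = 0.0599), and passed without replicate 3 (adjusted p = 0.0212).

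**Figure D3:**
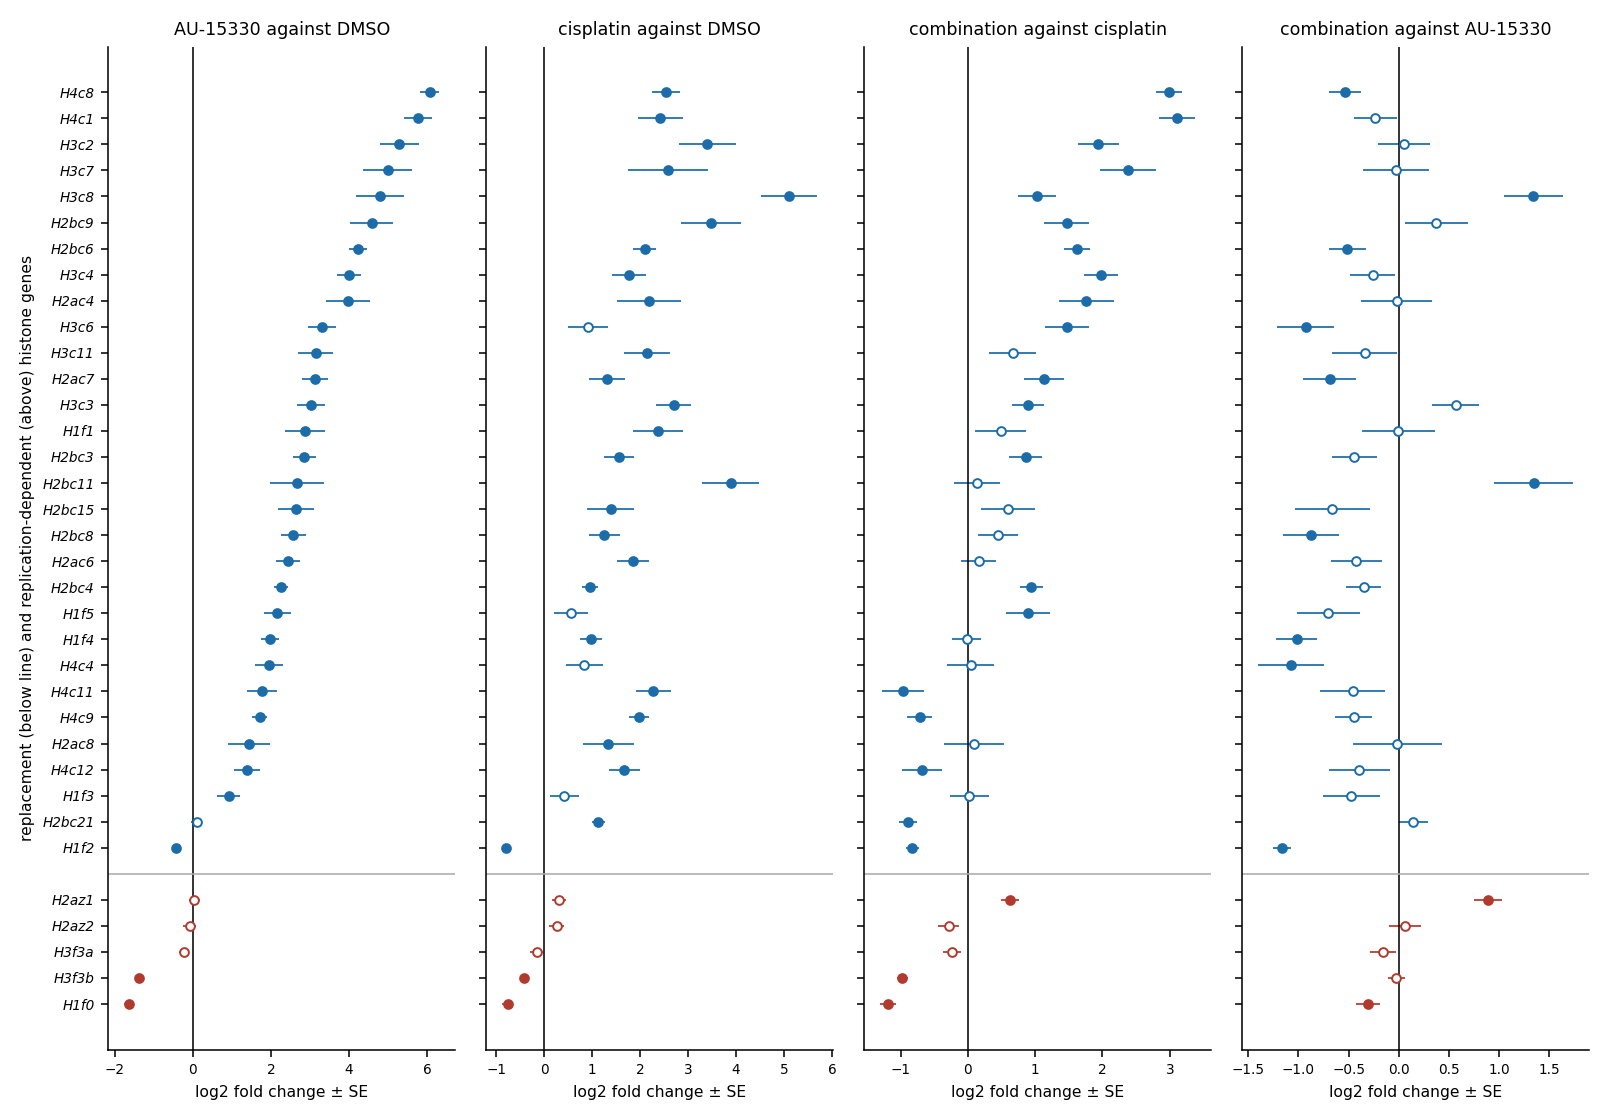
Log2 fold change of the 35 tested histone genes in the 4 pairwise comparisons, with the SE as a bar, filled where the edgeR quasi-likelihood test was passed and open where it was not (blue, replication-dependent, red, replacement). H4c8 and H4c1 lie at 6.07 and 5.77 with AU-15330 against DMSO, H1f2 lies below 0 in all 4 comparisons, and H2az1 is the replacement gene that lies highest in the 2 comparisons of the combination.

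When AU-15330 was added to cisplatin, tested genes of the class moved in both directions, as did genes in general. Against cisplatin alone, 15 of 30 genes rose, 5 fell and 10 did not pass the test, with a median of 0.76 against 0.04 over all genes. The background was 35.4% of all genes higher and 32.7% lower. Among the 7 genes with at least 10 counts in every DMSO library, 2 rose and 3 fell, with a median of -0.02, near that background. H4c1 rose by 3.11 (adjusted p = 1.04e-10), H4c8 by 2.99 ± 0.189 (adjusted p = 2.03e-13), H3c4 by 1.98 (adjusted p = 1.44e-07), H2bc6 by 1.63 (adjusted p = 3.56e-08), H3c8 by 1.02 (adjusted p = 0.0025), H2bc4 by 0.94 (adjusted p = 2.99e-05) and H1f5 by 0.90 (adjusted p = 0.0185). The H1f5 call was lost without replicate 4 (adjusted p = 0.126) or replicate 5 (adjusted p = 0.0622). H2bc8 (0.45, adjusted p = 0.18), H4c4 (0.04, adjusted p = 0.92) and H2bc11 (0.13, adjusted p = 0.751) did not pass.

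The 5 tested genes of the class that fell were H1f2, H2bc21, H4c9, H4c11 and H4c12. H1f2 fell by 0.82 (adjusted p = 9.88e-09) and H2bc21 by 0.89 ± 0.14 (adjusted p = 3.65e-06). H4c9 was at 1.75, 4.07 and 4.74 CPM with both agents, below every cisplatin library, and fell by 0.72 (adjusted p = 0.00115). H4c11 fell by 0.97 (adjusted p = 0.00765) and H4c12 by 0.68 (adjusted p = 0.0436). Genes of 1 family that encode H4 thus moved in both directions. By position, with no test of the difference, the tested genes of chromosome 13 formed 2 segments with a gap between them. Of the 22 tested genes between positions 23531044 and 23764412 of chromosome 13, 14 rose and 1 fell, with a median of 0.98. Of the 7 between positions 21735034 and 22043658, 1 rose and 3 fell, with a median of 0.13. Over all tested genes 35.4% rose and 32.7% fell, and the count of the 7 does not set them apart from that background. With AU-15330 against DMSO the medians of the same segments were 3.08 and 2.16. H4c12, H1f3, H3c6 and H3c3 are named to complete counts and were chosen after their values were seen.

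Among the replacement genes, H3f3b fell by 0.97 (adjusted p = 9.57e-11) and H1f0 by 1.19 (adjusted p = 2.04e-09) when AU-15330 was added to cisplatin. H2az1 rose by 0.62 (adjusted p = 0.000251), to 157, 174 and 223 CPM with both agents, a range that overlapped cisplatin alone through its highest library.

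The last pair of groups set both agents against AU-15330 alone. Of 30 replication-dependent genes 2 rose (H3c8 and H2bc11), 8 fell and 20 did not pass, with a median of -0.41 against 0.01 over all genes. Of all tested genes 22.2% rose and 19.5% fell. Among the 7 genes with at least 10 counts in every DMSO library, 0 rose and 2 fell. The 2 that rose were H3c8 by 1.34 (adjusted p = 0.000673) and H2bc11 by 1.34 (adjusted p = 0.00808). By the limit on correlation used here, over 0.1 in all 6 pairs, replicate numbers paired these 2 groups, narrowly (lowest 0.101). The counts above ignore the number, and with it as a block 3 rose and 11 fell.

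H1f2 fell by 1.17 ± 0.091 (adjusted p = 3.45e-10), the largest decrease, followed by H4c4 at 1.08 (adjusted p = 0.0102), whose call was lost without replicate 3 or 5 (adjusted p = 0.0588 and 0.0559). H2bc8 fell by 0.88 (adjusted p = 0.014), H4c8 by 0.53 (adjusted p = 0.00923) and H2bc6 by 0.51 (adjusted p = 0.0242), the last not without replicate 6 (adjusted p = 0.0884). H1f5 (-0.70), H2bc4 (-0.35), H4c9 (-0.45) and H3c3 (0.57) missed the threshold (adjusted p = 0.0737, 0.102, 0.0513 and 0.0557) and passed it with the replicate block (adjusted p = 0.00284, 0.0378, 0.0305 and 0.0454). Without replicate 1 H1f5 (adjusted p = 0.048) and H4c9 (adjusted p = 0.0194) passed too. H4c1 (-0.23, adjusted p = 0.409), H3c4 (-0.26, adjusted p = 0.378) and H2bc21 (0.14, adjusted p = 0.452) did not pass.

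H2az1 rose by 0.89 ± 0.137 in this comparison (adjusted p = 1.07e-05), and its combination libraries lay above every AU-15330 library. H3f3b differed by -0.03 (adjusted p = 0.837). H1f0 fell by 0.30 (adjusted p = 0.0406), a call that was lost when replicate 1, 2, 3 or 6 was left out (adjusted p 0.0511 to 0.0941).

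The test of whether AU-15330 had the same effect with and without cisplatin gave a negative difference for 28 of the 30 replication-dependent genes, a positive one for 0, and a median of -2.13 against 0.01 over all genes. Of all tested genes 15.8% had a negative and 17.9% a positive difference. Genes that are near 0 with DMSO and passed the filter through a treated group are pushed to negative values here, so this count too is a description. Among the 7 genes with at least 10 counts in every DMSO library, 6 had a negative difference and 0 a positive one, with a median of -1.26. The difference was -3.08 for H4c8 (adjusted p = 1.14e-07), -2.66 for H4c1 (adjusted p = 0.000305; -5.22 in replicates 1 to 3 and -1.27 in replicates 4 to 6, adjusted p = 0.0742), -2.61 for H2bc6 (adjusted p = 2.92e-07), -2.43 for H4c9 (adjusted p = 1.65e-07) and -1.31 for H2bc4 (adjusted p = 0.000202). For H1f2 it was -0.38 (adjusted p = 0.021), a larger fall in the presence of cisplatin, and this call was lost without replicate 2 or 3 (adjusted p = 0.0781 and 0.105). H3f3b (0.40, adjusted p = 0.0101), H1f0 (0.45, adjusted p = 0.0385) and H2az1 (0.58, adjusted p = 0.0222) had positive differences. None of these 3 held in every fit that left out a replicate.

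Genes that act on histone mRNA were taken from a list of 22, of which 19 were tested. With AU-15330 10 rose and 8 fell (median 0.23), with cisplatin 8 rose and 3 fell, with AU-15330 added to cisplatin 9 rose and 4 fell, and with cisplatin added to AU-15330 9 rose and 0 fell. Over all tested genes 36.2% rose and 37.2% fell with AU-15330, 26% and 25.7% with cisplatin, 35.4% and 32.7% with both against cisplatin, and 22.2% and 19.5% with both against AU-15330. Slbp, which encodes the stem-loop binding protein, was at 28.8 to 42.9 CPM with DMSO, 37.1 to 50.4 with AU-15330, 45.6 to 59.1 with cisplatin and 66.1 to 82.4 with both. It rose by 0.35 with AU-15330 (adjusted p = 0.00148) and by 0.57 with cisplatin (adjusted p = 1.21e-05), and it was highest with both agents, where replication-dependent sums were not. Npat, the coactivator of histone gene transcription, rose by 0.51 with AU-15330 (adjusted p = 4.57e-05) and 0.40 with cisplatin (adjusted p = 0.00136).

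Casp8ap2 (FLASH), needed at histone locus bodies, rose by 0.72 with AU-15330 (adjusted p = 1.31e-07) and 0.85 with cisplatin (adjusted p = 2.96e-08). The subunits of the U7 particle, which guides the cut after the stem-loop, went apart. Lsm11 fell from 12.7 to 23.02 CPM with DMSO to 5.58 to 7.36 with AU-15330, a change of -1.27 (adjusted p = 4.41e-10), while Lsm10 rose by 0.55 (adjusted p = 2.38e-06). With cisplatin the differences were -0.08 for Lsm11 (adjusted p = 0.567) and -0.15 for Lsm10 (adjusted p = 0.145). With both agents against AU-15330 Lsm11 rose by 0.81 (adjusted p = 5.89e-06). Eri1, an exonuclease that trims histone mRNA ends, fell by 0.85 with AU-15330 (adjusted p = 3.91e-10), differed by 0.16 with cisplatin (adjusted p = 0.0858) and rose by 0.73 with both against AU-15330 (adjusted p = 6.32e-08). Zfp473, a zinc finger protein of the U7 pathway, rose by 1.91 with AU-15330 (adjusted p = 1.24e-09) and 1.51 with cisplatin (adjusted p = 3.45e-07).

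Histone chaperones and histone acetyltransferases of new histones were followed as 28 tested genes. With AU-15330 15 rose and 5 fell, and with cisplatin 10 rose and 6 fell. With both against cisplatin 14 rose and 5 fell, and with both against AU-15330 16 rose and 3 fell. The shares of all genes were 36.2% higher and 37.2% lower with AU-15330, and 26% and 25.7% with cisplatin. They were 35.4% and 32.7% with both against cisplatin, and 22.2% and 19.5% with both against AU-15330. Hat1, which acetylates newly made H4, went from 130 to 260 CPM with DMSO to 1015 to 1310 with AU-15330, 179 to 280 with cisplatin and 856 to 899 with both. The 2 groups with AU-15330 lay far above the others, a rise of 2.78 ± 0.137 against DMSO (adjusted p = 8.84e-16) and of 2.01 against cisplatin (adjusted p = 4.98e-13). Npm1, nucleophosmin, fell by 0.50 with AU-15330 (adjusted p = 0.000144) and 0.48 with cisplatin (adjusted p = 0.000478). Rbbp7, which binds H4, rose by 0.22 with AU-15330 (adjusted p = 0.00506) and fell by 0.20 with cisplatin (adjusted p = 0.0145).

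S phase genes rose with replication-dependent histone genes, but not in the same order of groups. All 30 of the list were tested. With cisplatin 30 rose (median 1.61), with AU-15330 26 rose and 1 fell (median 1.16), with both against cisplatin 24 rose and 1 fell (median 0.69), and with both against AU-15330 30 rose (median 1.27). Of all tested genes 26%, 36.2%, 35.4% and 22.2% rose in these 4 comparisons. Their sum was 785 to 1006 CPM with DMSO, 1435 to 2183 with AU-15330, 2280 to 3356 with cisplatin and 3532 to 4512 with both, and no 2 groups overlapped. The replication-dependent histone sum was highest with AU-15330, where the S phase sum was lower than with cisplatin in every library. The median change of tested replication-dependent histone genes with AU-15330 was 2.77, and 1.71 over the 7 with at least 10 counts in every DMSO library.

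Pcna, the sliding clamp of DNA polymerase, rose by 1.24 with AU-15330 (adjusted p = 3.09e-10) and by 1.21 with cisplatin (adjusted p = 2.47e-09). Mcm6, a subunit of the replicative helicase, rose by 0.25 (adjusted p = 0.00994) and 0.90 (adjusted p = 1.98e-09). Rrm1, the large subunit of ribonucleotide reductase, was the S phase gene that fell with AU-15330, from 126 to 216 CPM to 69.8 to 143, a change of -0.78 (adjusted p = 2.89e-05), and it rose by 1.31 with cisplatin (adjusted p = 3.94e-08). Mcm2, another helicase subunit, rose by 0.84 with both against cisplatin (adjusted p = 2.63e-07).

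**Figure D4:**
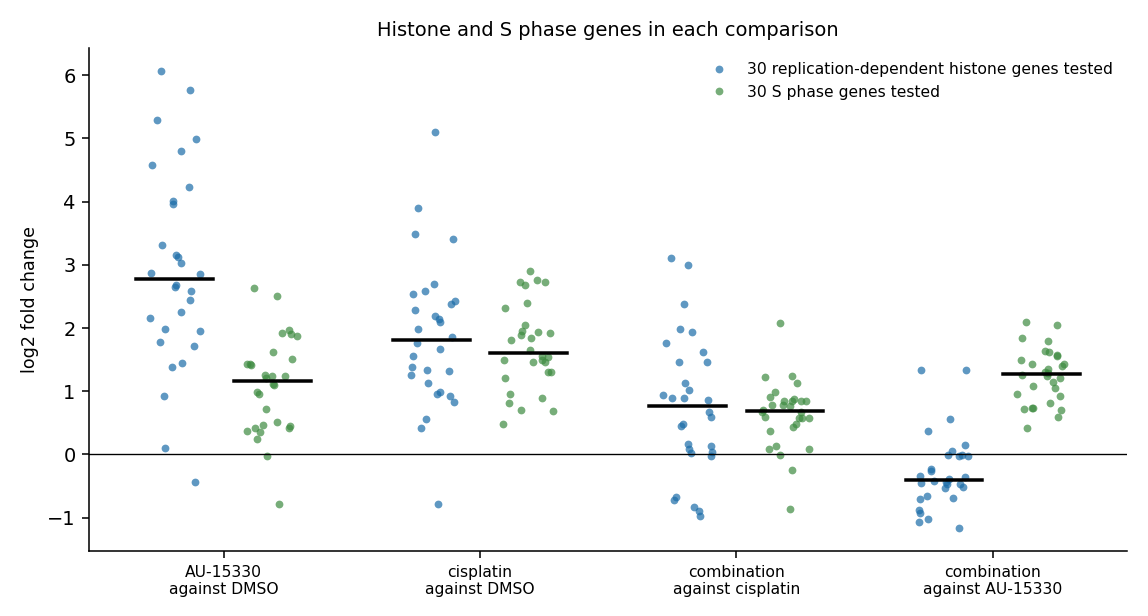
Log2 fold changes of the 30 tested replication-dependent histone genes and of 30 S phase genes in the 4 pairwise comparisons (each dot a gene, the black line the median). The histone median with AU-15330 against DMSO is 2.77, over genes many of which passed the count filter through a treated group (1.71 over the 7 with at least 10 counts in every DMSO library), and that of S phase genes 1.16. The histone median lies below that of S phase genes with both agents against AU-15330 (-0.41 and 1.27).

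Histone genes of 1 family are nearly alike in sequence, and the mapping of reads between them can move counts. Of all 70-base windows of a tested replication-dependent gene, 19.9 to 100% (median 64.0%) were found in no other GENCODE gene. The share was 93.0% for H1f2, 72.6% for H2bc4, 56.9% for H4c8, 85.2% for H2bc6, 76.3% for H4c9 and 100% for H2bc21 and H1f5. With AU-15330, 10 of the 12 genes with at least 75% unique windows rose and 1 fell, with a median of 2.06, and 18 of the 18 below that share rose, with a median of 3.08, where 36.2% of all genes rose and 37.2% fell. The split with both agents against cisplatin was 4 up and 4 down in the first group and 11 up and 1 down in the second, beside 35.4% of all genes up and 32.7% down, so the first group is near that background. None of these differences between groups was tested.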

How the data were processed

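The deposited table held raw counts per gene symbol for 2 lanes of each of 24 libraries, made by the authors from poly(A)-enriched RNA (NEBNext Ultra II Directional kit with PolyA enrichment). The submitters' processing notes name STAR 2.7.1a, DESeq2 1.36.0 and mm10. The counting tool, its strand setting, its annotation and its treatment of reads with several matches are not given in the sources used here. The study's methods text gives another cisplatin concentration for this line than the 750 nM of the labels, which is the one used here. No label says that replicates were separate cultures, so p-values measure the spread between these 6 libraries a group. The lanes were summed. Counts were tested with edgeR 4.0.16 (R 4.3.3), with TMM scaling, filterByExpr, 1 mean per group (20 residual degrees of freedom), quasi-likelihood tests and Benjamini-Hochberg adjustment over all 12941 genes, with calls at adjusted p below 0.05. Sums in counts-per-million (CPM) are shares of all counts of a library, and levels of single genes use TMM-scaled totals. DESeq2 1.42.0, other scalings, no filter, fits of only the groups compared, a replicate block and each replicate left out were the alternatives. The fit was tested on simulated counts with known changes. Among the groups compared, the correlation of the deviations of same-numbered libraries was over 0.1 in all 6 pairs (0.101 to 0.483) only for AU-15330 and the combination, so that by this limit the numbers pair only these groups among those compared. The limit was passed narrowly. DMSO and cisplatin had a higher median correlation (0.229 against 0.186), with 4 of 6 pairs over 0.1. Named genes are the 10 most abundant tested replication-dependent genes, the 2 largest increases and decreases in each comparison, every tested replacement gene, 7 genes of histone mRNA synthesis and processing, and the 3 most abundant called genes of the chaperone and S phase lists in each comparison. The members and lists were chosen with earlier results of these data known.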

Additional observations from a re-analysis of the deposited data

Results flagged for a closer look

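In 80 groups of 6 libraries (19 followed histone genes and Slbp, 4 groups each), 12 had a highest or lowest library whose gap to the next, divided by the range of the group, exceeded the 95% critical value of Dixon, where chance would give 4 (1 in 20). The ratio was 0.667 for H1f5 with DMSO and 0.648 with cisplatin, both for replicate 6. The other 10 were replicate 1. It stood alone at 0.629 for H2bc8 (low) and 0.648 for Slbp with both agents, at 1 for H3c8 with DMSO, where it held both counts, and at 0.649 and 0.644 for H3f3b with DMSO and with both agents. It did so at 0.738 for H3f3a with DMSO, 0.913 for H1f0 with AU-15330, and 0.76, 0.664 and 0.663 for H2az1 with AU-15330, cisplatin and both.

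The effect of AU-15330 on the log2 scale differed with and without cisplatin for 17 of 19 followed histone genes by the edgeR interaction test (adjusted p below 0.05), 14 with a negative and 3 with a positive difference, where 15.8% and 17.9% of all tested genes had one. Genes near 0 with DMSO that passed the filter through a treated group are pushed to negative values. The difference was -3.77 for H3c8, -3.08 for H4c8, -2.74 for H4c11, -2.66 for H4c1, -2.61 for H2bc6, -2.55 for H2bc11, -2.43 for H4c9, -2.13 for H2bc8, -2.03 for H3c4, -1.91 for H4c4, -1.31 for H2bc4, -1.26 for H1f5, -0.989 for H2bc21 and -0.383 for H1f2. H3c8 and H2bc11 had 2 and 3 counts with DMSO, and their differences became -5.38 without replicate 1 and -3.95 without replicate 6. In replicates 4 to 6 the difference of H4c1 was -1.27 (edgeR adjusted p = 0.0742) and that of H2bc11 -1.17 (0.474). The calls of H1f5 (0.0691) and H1f2 (0.192) were lost there too. In replicates 1 to 3 the calls of H3c8 (edgeR adjusted p = 0.0514), H4c4 (0.234), H3f3b (0.293), H1f0 (0.196) and H2az1 (0.269) were lost. The difference was positive at 0.58 for H2az1, 0.451 for H1f0 and 0.399 for H3f3b. Leaving out a replicate ended this call for H1f2 (replicate 2 or 3), H1f5 (2, 3 or 5), H2bc11 (2 or 5), H3f3b (4), H1f0 (2, 3, 4, 5 or 6) and H2az1 (2, 3, 4 or 5), with edgeR adjusted p-values from 0.0503 to 0.151.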

How the results depend on the processing

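Of 276 alternative counts of members called, 253 stayed within 1.5 times the value reported, and of 995 alternatives of 73 called single-gene results 944 kept the call, 51 lost it and 0 reversed. Replication-dependent genes higher with cisplatin numbered 25, 39 with no filter and 14 with only the groups compared, which tests fewer genes. Replacement genes higher with cisplatin numbered 0, 1 with total-count scaling, 2 with the replicate block, 1 in replicates 4 to 6, and 0 to 1 with a replicate left out (1 without replicate 1 or 3). For both agents against cisplatin, 1 replacement gene was higher and 0 in replicates 1 to 3, and 2 were lower, 4 with only the groups compared, 4 with the block and 2 to 4 with a replicate left out (4 without replicate 1). For both agents against AU-15330, replication-dependent genes higher numbered 2, 0 in replicates 1 to 3 and 1 to 2 with a replicate left out (1 without replicate 1), those lower 8 and 4 in replicates 1 to 3, and replacement genes lower 1 and 0 to 1 with a replicate left out. Replacement genes with a positive interaction numbered 3, 0 in replicates 1 to 3 and 0 to 3 with a replicate left out (0 without replicate 4). The interaction call of H1f0 was lost with total counts, with DESeq2 size factors and with no filter (adjusted p = 0.0696, 0.0546 and 0.0614 by edgeR). The causes were not tested. The mean DMSO sum of replication-dependent genes was 158 CPM and 168 with TMM-scaled totals. Scaling by total counts moved the median of all genes with AU-15330 by 0.13 and the share of calls that were higher with cisplatin from 50.2 to 61.1%, and the share with a positive interaction from 53.0 to 41.7%. The comparisons other than both agents against AU-15330 share only replicate numbers (4, 3 and 3 of 6 pairs with correlations over 0.1). There the block gave 27 replication-dependent genes higher with cisplatin, 28 with AU-15330 and 17 with both against cisplatin, and no followed gene lost a call. It gained calls for H1f5, H2az1 and H2az2 with cisplatin (adjusted p = 0.0324, 0.0132 and 0.0274 by edgeR), for H3f3a with AU-15330 (adjusted p = 0.0189) and for H3f3a and H2az2 with both against cisplatin (adjusted p = 0.0147 and 0.0258). The splits into replicates 1 to 3 and 4 to 6 were chosen after seeing the data. Depth limits genes near 3 counts in DMSO.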
